A study of Drosophila melanogaster with 2 samples.

Results

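Polycomb-like (Pcl) binding on the left arm of chromosome 2 of Drosophila melanogaster, arm 2L, was mapped in whole embryos collected 0 to 8 h after egg laying. The arm carried 388 of the 2457 peaks in the deposited list. The peaks described here are the 355 whose centre lay outside 7 windows of the arm, which together measure 1.04 Mb and hold the other 33 peaks. These 355 peaks were 14.4% of the list. They were chosen by position alone, with no use of their scores or widths.

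The assay was ChIP-seq, in which chromatin fragments are precipitated and sequenced, with an antibody against Pcl. The labels' growth text names iso1 flies (y; bw cn sp) or transgenic flies in general terms, and no treatment was given. The ChIP group is a single sample whose title names 3 replicates together, and the other group is input chromatin of the same stage, for which no peak list was analysed here. One list of combined replicates has no replicate error, so values are compared within the list and without tests. Whole embryos mix all cell types and a range of stages, so a strong peak in few cells and a weak one in many cells cannot be told apart. The list gives no read counts, and the depth behind each peak is unknown.

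Pcl is a partner of Polycomb repressive complex 2 (PRC2), which places methyl groups on lysine 27 of histone H3, and carries PHD fingers and a Tudor domain. In flies, Polycomb group proteins are recruited to short Polycomb response elements, from which the methyl mark can spread over the surrounding chromatin. Their best known targets are genes of transcription factors and signalling molecules that pattern the embryo. Several such elements can serve a single gene or a group of neighbouring genes, so the grouping of peaks along the arm is described here as well as the peaks themselves. All coordinates are on build BDGP5 and count from the telomere of the arm towards the centromere. The loci are given as positions, since no gene annotation of that build was used here.

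On arm 2L most Pcl peaks were short and had low scores, and a small number stood far above the rest. The score is the authors' peak caller's own value for each peak and serves only to rank peaks within the list. The median score was 73.4 (quartiles 58.97 and 98.5), and scores ran from 50.01 to 1558.18. A score under 60, close to the lowest in the list, was held by 99 peaks. A score of at least 100 was reached by 87 peaks, of at least 200 by 17 and of at least 500 by 4. The 17 peaks made up 4.79% of the members (95% exact interval 2.81 to 7.56, counting error only). The median width was 814 bp (quartiles 716 and 1031.5 bp), and widths ran from 477 to 3854 bp. All 355 peaks together covered 342 kb, or 1.59% of the 21.5 Mb between the first and the last of them.

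**Figure D1:**
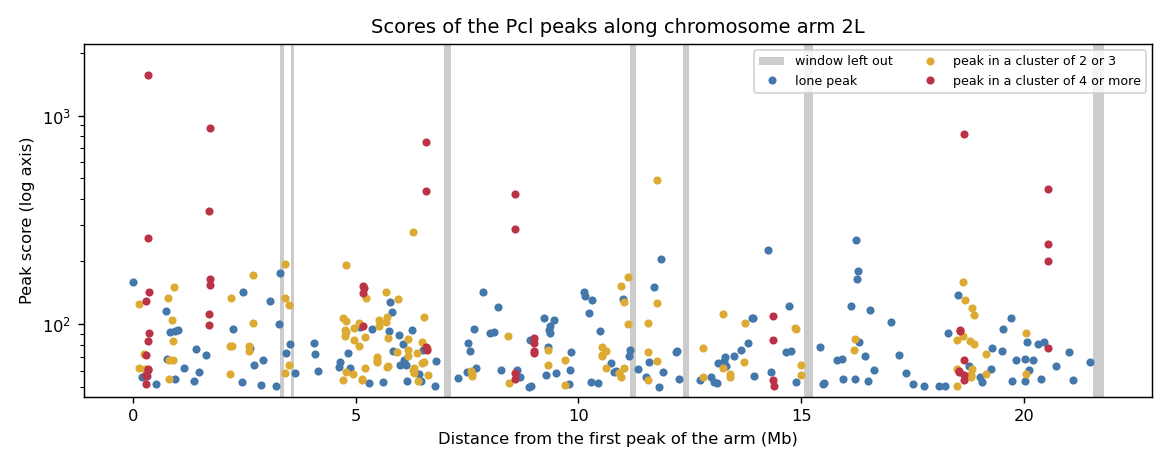
Score of each of the 355 Pcl peaks (points, log axis) against its distance in Mb from the first peak of arm 2L, coloured by the number of peaks in its cluster; grey bands are the windows left out. Most points lie below 100 along the whole arm, and the 4 peaks above 500 are spread from the telomeric end to the proximal part.

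The 4 strongest peaks lay in 4 separate places on the arm. The strongest, at chr2L:592102-595955, was 3854 bp wide with a score of 1558.18 and ranked 4 among all peaks of the chromosome arms. The second, at chr2L:1969893-1973690, was 3798 bp wide and scored 872. The third, at chr2L:18880512-18883282, lay at the other end of the arm and scored 818 with a width of 2771 bp. The fourth, at chr2L:6820990-6823313, scored 744 with a width of 2324 bp. Each of these 4 peaks belonged to a cluster of at least 4 peaks.

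The next scores fell off without another peak above 500. The peak at chr2L:12003886-12006670 scored 492, that at chr2L:20769997-20772057 scored 446, and that at chr2L:6831140-6834394 scored 437. The following pair were at chr2L:8826435-8828865 with a score of 422 and at chr2L:1950523-1953021 with 347. Of these 5, the peaks with scores of 437 and 347 shared a cluster with one of the 4 strongest. Of the 17 members with a score of 200 or more, 14 shared a cluster with another peak, 12 of them in clusters of at least 4 peaks, and 3 stood alone.

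The remaining peaks among the 20 highest scored between 180 and 286. They were at chr2L:8824385-8826202 (score 286), chr2L:6528066-6530233 (277), chr2L:586319-588115 (258), chr2L:16471971-16473500 (254), chr2L:20781575-20782741 (241) and chr2L:14491621-14493242 (227). Further ones were at chr2L:12083182-12085454 (205), chr2L:20776291-20777561 (201), chr2L:3659594-3660752 (195), chr2L:5033278-5034856 (192) and chr2L:16509917-16511392 (180). The 20 peaks were wide, with a median of 2114.5 bp and a range of 1159 to 3854 bp. Another peak lay in the same cluster for 16 of them. The order ends without a step, since the peak of the next lower score had 176.

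Grouping of peaks with gaps under 10 kb gave 243 clusters on the arm. Lone peaks made up 173 of these, pairs 46, groups of 3 peaks 13 and groups of 4 peaks 8. A further pair of clusters held 6 peaks each, and 1 held 7. In all, 182 peaks (51.3%, 95% exact interval 45.9 to 56.6) had a neighbour in their cluster, and the interval treats neighbouring peaks as independent, which they are not. The 70 clusters of at least 2 peaks had a median length of 8.66 kb and the longest measured 23.2 kb. Peaks covered between 12.9% and 95.9% of their length, with a median of 31.7%.

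The most populated cluster, chr2L:578417-600676, was built around the strongest peak of the arm. Its 7 peaks scored, in map order, 60.4, 61.2, 82.9, 258, 1558.18, 143 and 91.2. Scores thus rose over the first 5 peaks and were lower in the last 2. The peaks covered 49.1% of its 22.3 kb. A cluster of 6 peaks lay 26.6 kb nearer the telomere, at chr2L:535931-551853, with 1 lone peak between them. Its scores were 56.4, 57.1, 57.02, 51.6, 129 and 71.0, and its peaks covered 31.7% of its 15.9 kb. These 2 clusters have similar numbers of peaks, whereas their highest scores differ by a factor of 12.1.

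The other cluster of 6 peaks, chr2L:1950523-1973690, had a strong peak at each end. Its scores in map order were 347, 98.8, 112, 166, 155 and 872, and peaks covered 48.4% of its 23.2 kb. The last 3 peaks of this cluster were separated by gaps of 587 and 87 bp only, so they form a nearly continuous stretch of 6994 bp. Beyond the strongest peak the arm held no further peak for 447 kb. The cluster was thus followed by the fourth longest stretch without a member peak.

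The clusters of 4 peaks took different shapes. At chr2L:6817219-6838365 the inner pair of peaks scored 744 and 437 and lay 7826 bp apart, and the outer pair scored 78.0 and 75.7. At chr2L:8813469-8828865 the scores were 58.2, 54.7, 286 and 422, and the last pair was 232 bp apart. At chr2L:20768430-20782741 the scores were 77.3, 446, 201 and 241, so 3 of its 4 peaks reached 200. At chr2L:18880512-18890982 the first peak scored 818 and the second highest 67.5, a ratio of 12.1. A single dominant peak, a pair of strong peaks and a row of strong peaks were thus all present among the strong clusters of 4.

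The remaining clusters of 4 held no peak above 200. At chr2L:5403419-5422685 the peaks were of like height, with scores of 152, 142, 98.4 and 149.53. At chr2L:9240270-9253033 the scores were 81.7, 73.3, 74.8 and 86.4. At chr2L:14602603-14623138 they were 84.5, 109, 54.1 and 50.7. The longest cluster of the arm, chr2L:18774031-18797250, was also weak, with scores of 59.9, 59.1, 93.4 and 93.8 over 23.2 kb and a peak coverage of 17.7%. Of the 11 clusters of at least 4 peaks, 6 had a highest score of at least 200 and 5 did not, so the number of peaks in a cluster did not fix its strength.

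**Figure D2:**
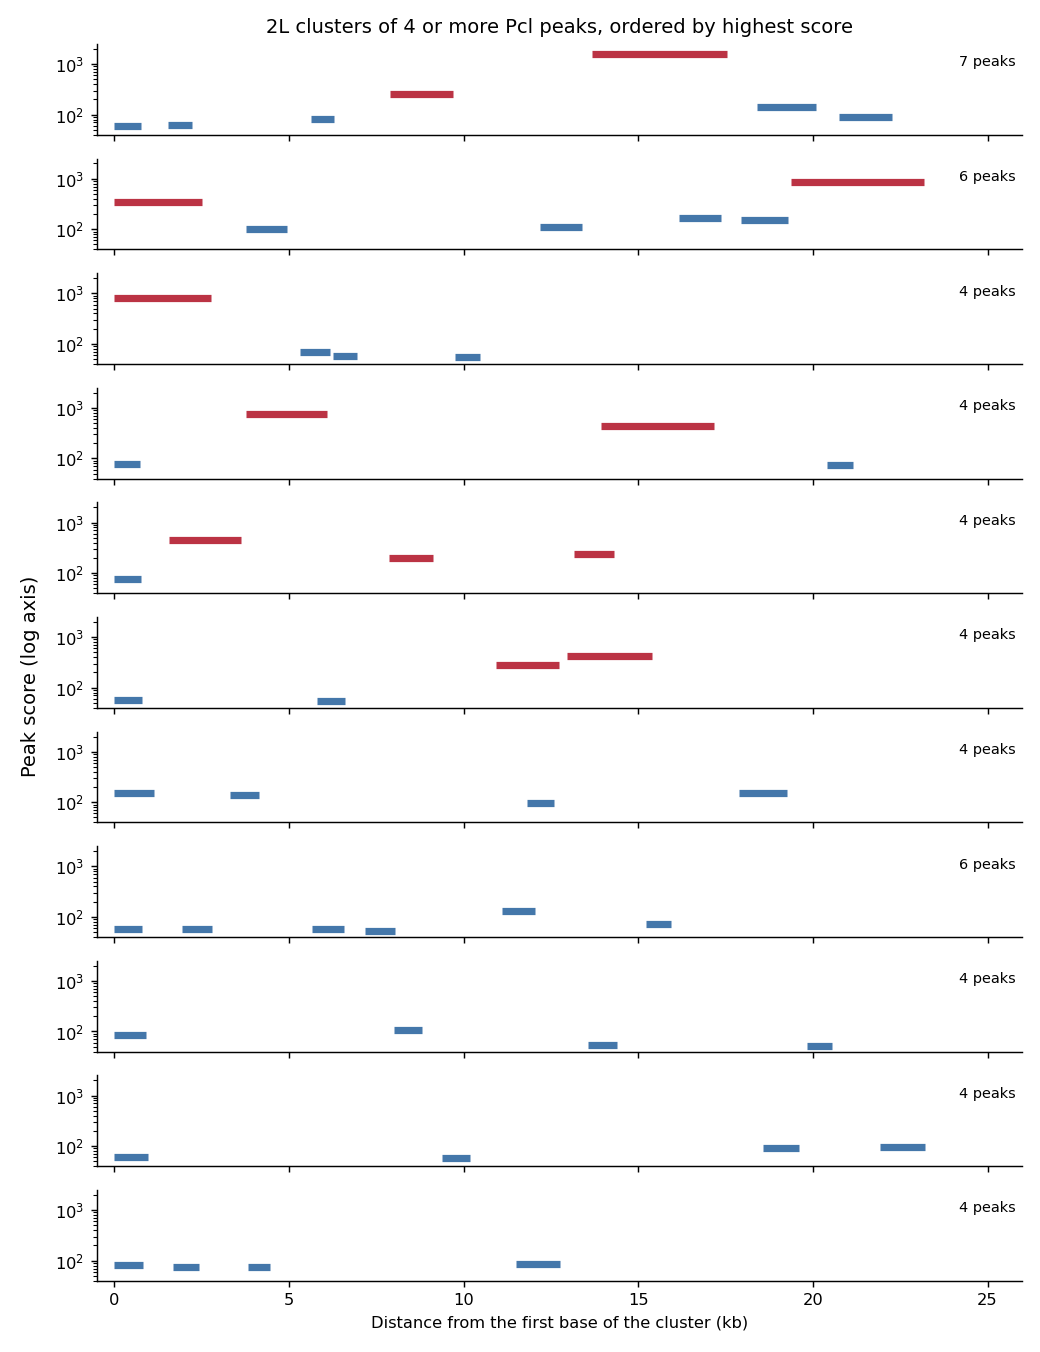
The 11 clusters of at least 4 Pcl peaks on 2L, ordered from top to bottom by highest score; each line spans 1 peak, placed by its distance in kb from the first base of the cluster and by its score (log axis), with scores of at least 200 in red. The upper 6 clusters hold peaks above 200 and the lower 5 do not, although the upper ones measure 10.5 to 23.2 kb and the lower ones 12.8 to 23.2 kb.

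In the list as deposited, the strongest peak of a cluster was an outer one in some clusters and an inner one in others. Among the 24 clusters of at least 3 peaks it was the first peak in 8, the last in 8 and an inner one in the other 8. These clusters hold 48 outer and 42 inner peaks. In the 11 clusters of at least 4 peaks, with 22 outer and 29 inner peaks, the strongest peak was an outer one in 6. After peaks with gaps under 1 kb were joined, it was an outer one in 15 of 19 clusters of at least 3 peaks. With a score minimum of 60 it was an outer one in 7 of 12. Outer and inner peaks were not counted for these changed lists, so their shares cannot be set beside the share of outer peaks. The strongest peak scored at least 2 times the second highest in 5 of the 24 clusters.

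In most of the 46 pairs the peaks had scores of like size, and 1 pair held a strong peak. The gap between the peaks of a pair had a median of 3615 bp and ran from 73 to 9863 bp, and 12 pairs were under 1 kb apart. The higher score was a median of 1.38 times the lower one, under 1.5 times in 26 pairs and at least 2 times in 6. This likeness was not particular to pairs. The median ratio was 1.33 for neighbouring members with gaps of 10 to 50 kb and 1.26 for those with gaps of 50 kb or more. Both peaks scored below 100 in 23 pairs, and the pair with a peak of at least 200 was chr2L:6528066-6536666 with scores of 277 and 60.6. Pairs in which both peaks were above 100 included chr2L:2946720-2949843 with scores of 172 and 102, chr2L:11353433-11359512 with 169 and 100.21, and chr2L:5923708-5926092 with 142 and 103.

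Among the groups of 3 peaks, the one at chr2L:12003886-12012810 stood highest. Its peaks covered 60.8% of its 8.93 kb, and its highest score was 492 against 127 for the second. The other 12 groups of 3 had highest scores between 59.98 and 195. The longest of the 13, chr2L:1042766-1062169, had a highest score of 133 and a peak coverage of 12.9%.

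Lone peaks had a lower median score than the peaks of the most populated clusters, and a smaller share of strong peaks; neither difference was tested. The median score was 68.3 for the 173 lone peaks, 74.98 for peaks in pairs, 74.1 for peaks in groups of 3 and 91.2 for peaks in clusters of 4 or more. A score of at least 200 was reached by 3 lone peaks (1.73%, 95% exact interval 0.36 to 4.98). It was reached by 12 of the 51 peaks in clusters of 4 or more (23.5%, 12.8 to 37.5). These 12 peaks lay in 6 of 11 such clusters. The interval treats peaks of the same cluster as independent, which they are not. Median widths were 777 bp for lone peaks and 909 bp for peaks in clusters of 4 or more. Clustering here needs a second listed peak nearby, so it depends on the authors' score cut-off, and whether the peak caller divided wide regions was not tested.

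**Figure D3:**
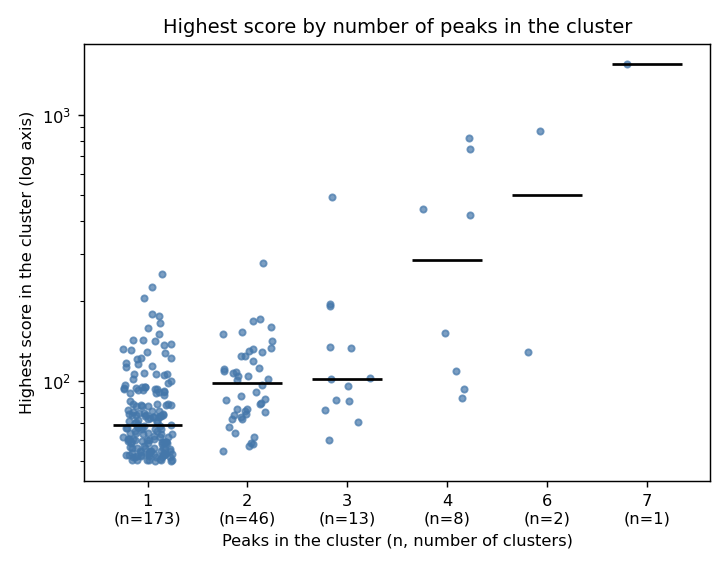
Highest score (log axis) of each of the 243 clusters of 2L, by the number of peaks in the cluster; points are clusters and bars are medians. Lone peaks reach at most 254, whereas clusters of 4 or more range from 86.4 to 1558.18. The highest of several scores tends to exceed a single score, so some rise with the number of peaks is built in.

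Even so, a few strong peaks stood alone. The strongest lone peak, at chr2L:16471971-16473500, scored 254, and its nearest member peak was 10.2 kb away, just past the limit for grouping. The second, at chr2L:14491621-14493242, scored 227, and its nearest member peak lay 79.2 kb away. On its telomeric side no member peak was listed for 305 kb. The third, at chr2L:12083182-12085454, scored 205 at a distance of 32.4 kb from its nearest member peak. The others of the 5 highest lone peaks were at chr2L:16509917-16511392 with a score of 180 and at chr2L:3538178-3540444 with 176. The last of these lies 10.7 kb before a left-out window, whose first peak started 17.3 kb beyond it.

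Width and score rose together across the arm (Spearman's rho = 0.68 over 355 peaks, which share 1 library pool and 1 peak caller and are not independent). The 75 peaks under 700 bp had a median score of 58.9 and none reached 200. The 180 peaks of at least 700 and under 1000 bp had a median score of 67.8 and the highest was 169. The 71 peaks of at least 1000 and under 1500 bp had a median of 102, and 2 of them reached 200. The 29 peaks of 1500 bp or more had a median of 205, and 15 of them reached 200. The widest peak with a score under 100, at chr2L:9580530-9582375, was 1846 bp wide and scored 93.5. The narrowest with a score of at least 100, at chr2L:19080943-19081697, was 755 bp wide and scored 119.5.

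**Figure D4:**
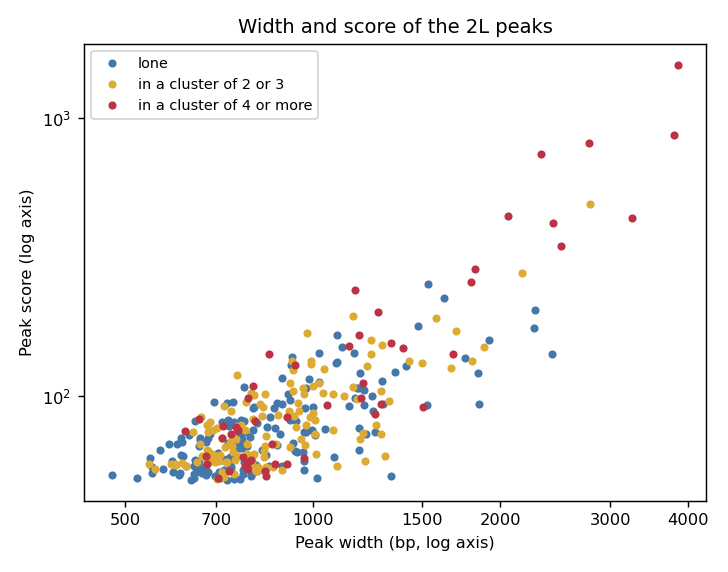
Width in bp and score of the 355 peaks of 2L, both on log axes, with colours for the number of peaks in the cluster. Points rise from the lower left, where narrow lone and clustered peaks mix, to the widest peak of 3854 bp with a score of 1558.18.

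Pcl peaks were unevenly spread along the arm. Over the 22 bins of 1 Mb the number of member peaks had a median of 15.5. The bins from 5 to 6 Mb and from 6 to 7 Mb held 38 and 34 peaks, and no other bin held more than 23. These 2 bins contained 20.3% of all members. By contrast, the bin from 17 to 18 Mb held 5 peaks and that from 4 to 5 Mb held 7. The bin from 21 to 22 Mb held 3, but a left-out window took 9 further peaks there. Windows also took 9 peaks from the bin from 3 to 4 Mb, which kept 14. They took 6 from the bin from 11 to 12 Mb, which kept 20, and fewer elsewhere. By stretches of 5 Mb, the arm held 79 peaks from 0 to 5 Mb, 115 from 5 to 10 Mb, 75 from 10 to 15 Mb and 67 from 15 to 20 Mb, and 19 lay beyond 20 Mb.

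The dense stretch from 5 to 7 Mb was rich in peaks of middle height. Its 72 peaks had a median score of 78.4, against 71.6 for the other 283 members. A score under 60 was held by 16.7% of its peaks and by 30.7% of the others. A score of at least 200 was reached by 3 of its peaks (4.17%, 95% exact interval 0.87 to 11.7) and by 14 of the others (4.95%, 2.73 to 8.16). Of its peaks, 72.2% (60.4 to 82.1) shared a cluster with another, against 45.9% (40.02 to 51.9) of the others, yet its clusters held at most 4 peaks. The stretch was picked for its high number of peaks per Mb, so a higher clustered share follows from that choice. These intervals treat neighbouring peaks as independent, which they are not. All 3 peaks of at least 200 in the stretch lay between 6 and 7 Mb. In the bin from 5 to 6 Mb, 31 of the 38 peaks were clustered, the median score was 90.3 and the highest was 192.

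Of the 17 peaks of at least 200, 14 lay outside the dense stretch, where 79.7% of all members lay as well. The bins from 0 to 1 Mb, 1 to 2 Mb, 8 to 9 Mb and 12 to 13 Mb held 2 each, and those from 6 to 7 Mb and 20 to 21 Mb held 3 each. The bins from 14 to 15 Mb and 16 to 17 Mb held 1 each. The bin from 18 to 19 Mb also held 1, the strong peak of 818, among 19 peaks of which 78.9% were clustered. Between 9 and 12 Mb, 55 member peaks were listed and none reached 200, and the highest score there was 169.

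Long empty stretches separated the occupied parts. Member peaks next to each other were a median of 24.7 kb apart between centres (quartiles 7.96 and 78.7 kb). Gaps of at least 100 kb between members numbered 64 and added up to 13.3 Mb, or 62.0% of the span. Some of them contained left-out windows with peaks, so this share is not all free of listed peaks. With the windows included, gaps of at least 100 kb numbered 66. Gaps of at least 300 kb numbered 12, of which 3 contained a left-out window with peaks of its own. The longest ran from 7047347 to 7546757 (499 kb) and held 4 left-out peaks, and the second from 12500902 to 12961929 (461 kb) held 1. The longest gap with no listed peak at all ran from 4407979 to 4865102 (457 kb), in the bin before the dense stretch. It was followed in length by 1973691 to 2421165 (447 kb) and 3874734 to 4307514 (433 kb). The mappable share of these stretches was not examined, so an empty stretch shows only that no peak passed the authors' cut-off.

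At short range, 27 gaps between neighbouring members were under 1 kb, in 24 clusters, with a median of 521 bp. The shortest was 73 bp, between peaks at chr2L:16434173-16434952 and chr2L:16435026-16435855 with scores of 75.8 and 85.1. Joining across these gaps left 328 peaks. The widest joined region ran from 592102 to 600676 (8575 bp), and the next were the stretch of 6994 bp described above and chr2L:8824385-8828865 with 4481 bp. These 3 regions contained the first, second and eighth strongest peaks of the arm.

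When neighbours up to 50 kb apart were also joined, the arm divided into 126 stretches, of which 57 were lone peaks and 4 held at least 10 peaks. The most populated ran from 457840 to 600676, spanned 143 kb and joined 5 clusters with 17 peaks. Its median score was 61.2 and its highest 1558.18, since the strongest peak of the arm lay near its proximal end. The second ran from 6625846 to 6862074 over 236 kb with 15 peaks in 8 clusters, 2 of which peaks reached 200. The third, from 987895 to 1196654, held 12 peaks in 8 clusters and the highest scored 151. The fourth, from 5923708 to 6081858, held 10 peaks in 7 clusters and had a median score of 98.1 with a highest of 142. Dense stretches therefore included both strong and uniformly modest ones.

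Some edges of the left-out windows ran through regions with peaks, and others lay far from any listed peak. At the edge at 12720000 the nearest peaks had their centres 242 kb outside and 93.4 kb inside. The nearest member outside an edge, at chr2L:11398596-11399396, scored 75.7 and had its centre 1.00 kb from the window. The next nearest, at chr2L:3873766-3874733, scored 58.4 at 4.25 kb. Just inside an edge lay peaks at chr2L:15499104-15499944 with a score of 58.6, at 0.48 kb from the edge, and at chr2L:3638814-3639834 with 83.2, at 0.68 kb. The windows held between 1 and 10 peaks each, and the highest score in any of them was 374.

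Set beside the other large arms of the same list, 2L held fewer peaks per Mb than 2R, 3L and 3R and more than X, and its longest cluster was the shortest of the 5 arms. With the windows included, 2L held 17.8 peaks per Mb between its first and last peak, against 27.7 for 2R, 22.2 for 3L, 28.5 for 3R and 9.14 for X. The share of peaks in clusters of at least 2 was 51.3% for the members on 2L, 54.3% on 3L (95% exact interval 49.9 to 58.7), 54.2% on X (46.8 to 61.4), 63.3% on 2R (59.1 to 67.4) and 65.2% on 3R (61.8 to 68.6). With the windows included the share on 2L was 51.8%. The longest cluster measured 23.2 kb on 2L, 32.9 kb on X, 34.2 kb for 3L, 82.7 kb for 2R and 319 kb for 3R. The most populated cluster held 7 peaks on 2L, 7 on X, 6 for 3L, 17 for 2R and 107 for 3R. Clusters of at least 5 peaks numbered 3 on 2L, 6 on X, 8 for 3L, 13 for 2R and 20 for 3R. These counts are not scaled and come from 355 member peaks on 2L, 190 peaks on X, 508 on 3L, 537 on 2R and 791 on 3R. These differences between arms were not tested, since the list has no replicates and peaks of one region are not independent.

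In the share of strong peaks 2L stood near 2R and 3L. A score of at least 200 was reached by 4.79% of the 2L members, 4.10% of the peaks on 2R (95% exact interval 2.58 to 6.14) and 4.72% on 3L (3.05 to 6.95). With the windows included the share on 2L was 5.15%. The share was 10.5% on 3R (8.44 to 12.8) and 10% on X (6.13 to 15.2). The value for 3R covers the whole arm with its cluster of 107 peaks, and the part of its strong peaks in that cluster was not examined. These intervals treat peaks of one region as independent, which they are not. Median scores lay between 71.3 on 2R and 74.9 on 3L, and median widths between 768 bp on X and 846 bp on 2R. Among the 100 highest peaks of all arms, 9 were members on 2L, and 4 of the 50 highest were. Both counts lie below the members' share of 14.4% of all listed peaks, a difference that was not tested. Gaps of at least 300 kb between neighbouring peaks, counted with the windows included, numbered 10 on 2L, 9 on 3R, 1 on 2R, 19 on X and 0 on 3L, where the longest gap was 298 kb.

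**Figure D5:**
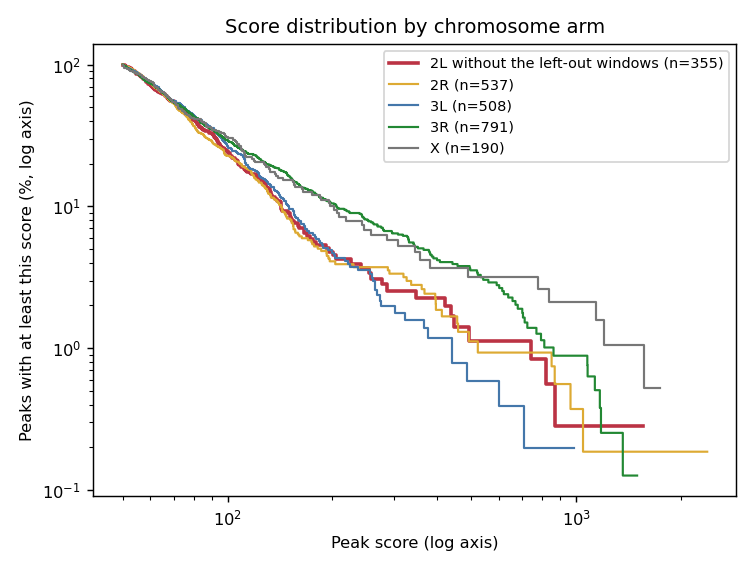
Percentage of peaks with at least a given score (both axes log) for the 355 peaks of 2L outside the windows and for all peaks of 2R, 3L, 3R and X. At a score of 200 the curves of 2L, 2R and 3L lie between 4.10% and 4.79%, and those of 3R and X at 10.5% and 10%.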

How the data were processed

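Pcl ChIP-seq peaks of embryos of 0 to 8 h were taken from 1 deposited list. Per the file headers, the authors called the peaks with MACS; per the submitters' processing notes, Bowtie and build BDGP5 were used. Neither versions and settings nor the way of combining the 3 replicates was given in the sources used here. Each deposited score has no stated scale and ranks peaks within the list only; the lowest is 50.01, so the number of peaks depends on a cut-off near that value. Positions are given 1-based. Peaks with centres in 7 windows were left out, and the remaining 2L peaks with gaps under 10 kb were grouped (Python 3.11.15, pandas 2.3.3). Shares have 95% exact (Clopper-Pearson) intervals from scipy 1.17.1, which cover counting error only. The grouping was tested on simulated data and recovered the clusters of 20 of 20 lists. Named were the 20 highest peaks, the 10 most populated and 5 longest clusters, the 5 longest empty stretches and the 5 highest lone peaks; other regions were chosen after their values were seen, among them the cluster around the third strongest peak. The members and lists were chosen with earlier results of these data known. The gene table at hand is of Release 6, coordinates were not converted, and so genes and sequence motifs were not analysed here. Score minimums, cluster gaps, joining of close peaks and the windows were varied.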

Additional observations from a re-analysis of the deposited data

How the results depend on the processing

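Values without replicates were compared with 1.5 times the count, or with the 95% exact interval of a share or median. A minimum score of 60 moved the median width from 814 to 920 bp and the median score from 73.4 to 84.0. Restricting the whole list to its 1228 highest scores left 176 peaks on 2L in 132 clusters, with 41.5% clustered, a median width of 995 bp, a median score of 98.7, a neighbour distance of 40.2 kb and 9.66% at 200 or more. A minimum score of 100 left 87 peaks in 71 clusters, with 31.0% clustered, 1193 bp, a median score of 134, 93.4 kb and 19.5% at 200 or more. These shifts follow from how the lists were made. With gaps under 1 kb joined, 43.6% of peaks were clustered and the median width was 853 bp. The clustered share was 14.6% at a cluster gap of 1 kb, 34.1% at 5 kb, 66.8% at 20 kb and 83.9% at 50 kb. The most populated cluster held 3, 14 and 17 peaks at gaps of 1, 20 and 50 kb, and 126 clusters remained at 50 kb. It was another region, chr2L:535931-551853 with 5 peaks, after gaps under 1 kb were joined, and chr2L:1950523-1973690 with 6 peaks among the 1228 highest scores and with 5 at a minimum score of 100. The other 32 of 58 recomputed values stayed within their limits, including all those with the windows included. The bins from 5 to 7 Mb held between 20.1% and 23.9% of peaks under both score minimums, among the 1228 highest scores and after joining. The recounts for these bins, for the region of the most populated cluster and for the place of the strongest peak within clusters were chosen after seeing the data. No paired analysis was possible because all replicates were merged in one list, and single replicates could not be left out. Peaks below the authors' cut-off and the depth per peak are unknown.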

Other observations

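The rank correlation between the scores of neighbouring peaks of 2L was highest at very short range, a difference that was not tested. For the 27 neighbours with gaps under 1 kb, Spearman's rho between their scores was 0.74. It was 0.22 for 85 neighbours at 1 to 10 kb, 0.06 for 117 at 10 to 50 kb and 0.10 for 125 at 50 kb or more. The higher score was a median of 1.21, 1.38, 1.33 and 1.26 times the lower one in these 4 classes, so by ratio distant neighbours were nearly as alike. Neighbours share peaks and a library pool, so these are descriptions of the list. At least one peak of 200 or more was present in 14.8%, 14.1%, 5.98% and 4.80% of these 4 classes.

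The most isolated member peaks named here scored below the median of the arm of 73.4, with 1 exception. A distance of over 100 kb to the nearest member separated 17 of the 173 lone peaks. Not all of these 17 were weak. The highest of their scores was 158.91, at chr2L:240269-242183, and the next was 142, at chr2L:8102081-8104504. Left-out peaks were not counted and can lie nearer. The most isolated, at chr2L:21716614-21717270, scored 66.2 with its nearest member 376 kb away, but a left-out peak started at 21801052. The peak at chr2L:17249417-17250329 scored 102 with its nearest member 183 kb away. The peak at chr2L:17988569-17989584 scored 50.8, was 1016 bp wide and lay 234 kb from its nearest member. Those at chr2L:7546758-7547310 and chr2L:11581685-11582303 scored 55.6 and 60.8, with nearest members 197 and 182 kb away.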
